A study of Homo sapiens with 6 samples.

Results

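Matrix metalloproteinases (MMPs), ADAMTS proteases and the tissue inhibitors of metalloproteinases (TIMPs) were examined in MDA-MB-231 cells, a human triple-negative breast cancer line, with and without ectopic oncostatin M (OSM), a cytokine of the interleukin-6 family. The members were the 45 MMP, ADAMTS and TIMP genes on a list of gene symbols, of which 43 (22 MMPs, 18 ADAMTS proteases and 3 TIMPs) were matched among the 17687 genes that the platform annotation names on the arrays. ADAMTS7 and TIMP2 were not matched and were not analysed here. Each of the 43 genes had 1 transcript cluster, the probe group that stands for a gene on the array. MDA-MB-231-hOSM cells carried pUNO1-hOSM, which encodes human OSM, and MDA-MB-231-hC cells carried the empty pUNO1 vector, in each case after stable transfection with 2 μg of plasmid. Both lines were selected in blasticidin at 10 μg/mL and grown side by side. RNA from 3 passages of each line was hybridized to Human Clariom S arrays, which gave 3 arrays per line in sets 1 to 3. The labels give 1 line per vector and name no separate transfections, so effects of OSM and of the transfection or selection of a line cannot be told apart. The p-values measure the scatter of the differences between the lines over the 3 sets of passages, and not a spread between transfections.

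MMPs are secreted or membrane-anchored zinc proteases that are made as inactive proenzymes and together can break down most proteins of the extracellular matrix. The ADAMTS proteases are secreted relatives with thrombospondin repeats, some of which cut proteoglycans such as versican and aggrecan while others trim procollagens. TIMPs are small secreted proteins that block the active site of these enzymes, so that proteolysis depends on the balance of protease and inhibitor, and in breast tumors cancer cells and stromal cells are both known sources of them.

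The 6 arrays had median log2 signals between 6.82 and 6.85. OSM itself had log2 signals of 14.90, 14.82 and 14.69 in MDA-MB-231-hOSM (sets 1, 2 and 3), against 5.06, 5.11 and 5.26 in MDA-MB-231-hC. The deposited values carry no detection p-values, so the 95th percentile of 348 olfactory receptor genes, a log2 signal of 5.78, served as the guide to background, and a gene was placed above or below it by its mean in a line. All 7 markers taken for MDA-MB-231 lay above it, and of 4 genes that a triple-negative, non-luminal line should lack, ESR1, PGR and FOXA1 lay below it in both lines and GATA3 lay above it (6.78 in MDA-MB-231-hOSM and 7.39 in MDA-MB-231-hC). Some markers of other cells lay above the guide in at least 1 line. They were 2 of 6 leukocyte genes, 2 of 5 fibroblast genes and 1 of 5 endothelial genes. PTPRC, DCN, LUM, PECAM1 and CDH5 were below it in both. The leukocyte gene CD68 averaged 12.60 in MDA-MB-231-hOSM, against 12.29 in MDA-MB-231-hC. CSF1R was above the guide only in MDA-MB-231-hOSM (5.87, against 5.44). Of the fibroblast genes, COL1A2 averaged 8.74 in MDA-MB-231-hOSM, against 8.85 in MDA-MB-231-hC. Nearer the guide lay COL1A1, with 5.91 in MDA-MB-231-hOSM, against 6.09 in MDA-MB-231-hC. The endothelial exception was KDR, which was higher in MDA-MB-231-hOSM (10.96 against 7.58 in MDA-MB-231-hC). The mean over the endothelial genes ranged from 5.65 to 5.82 in MDA-MB-231-hOSM and from 4.93 to 5.09 in MDA-MB-231-hC. The same mean ranged from 6.29 to 6.36 and from 6.26 to 6.31 in these lines over the leukocyte genes, and from 5.69 to 5.91 and from 5.56 to 5.76 over the fibroblast genes. Whether other cells had a part in any result was not tested.

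The 2 arrays of a set departed from the means of their lines as near mirror images. Pearson's r between these departures was −0.993, −0.995 and −0.992 in sets 1, 2 and 3 across all transcript clusters, and −0.990, −0.990 and −0.995 across the 43 members, where genes are not independent replicates. Averaged over both lines, the sets are thus nearly alike in the deposited values, and each test rests on the scatter of 3 within-set differences. The SDs given for the 2 lines of a gene mirror each other and are not independent spreads. The study's methods name no step from which this pattern would follow.

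Of the 43 measured members, 5 were higher in MDA-MB-231-hOSM (ADAMTS9, MMP1, ADAMTS1, TIMP1 and ADAMTS6), 2 were lower (TIMP3 and MMP16) and 36 were not called. A gene was called at an adjusted p under 0.1 and a change over 2-fold, the thresholds of the study's methods, in limma with the set as a block and Benjamini-Hochberg adjustment over all 21448 transcript clusters. Of the members 16.3% were called, against 4.16% of all transcript clusters (2.60% higher and 1.57% lower). Among features above background the called were 7 of 13 members and 6.47% of all. The median log2 fold change was 0.13 over the members and −0.03 over all transcript clusters, and the median size of the change, whatever its sign, was 0.32 over the members and 0.21 over all. The arrays of the lines did not overlap for 53.5% of the members (23 genes), close to the 50.0% of all transcript clusters. All 7 called members lay above the guide to background in both lines, and 30 of the uncalled members lay below it in both. Signals of different genes come from different probes and are not set against each other.

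**Figure D1:**
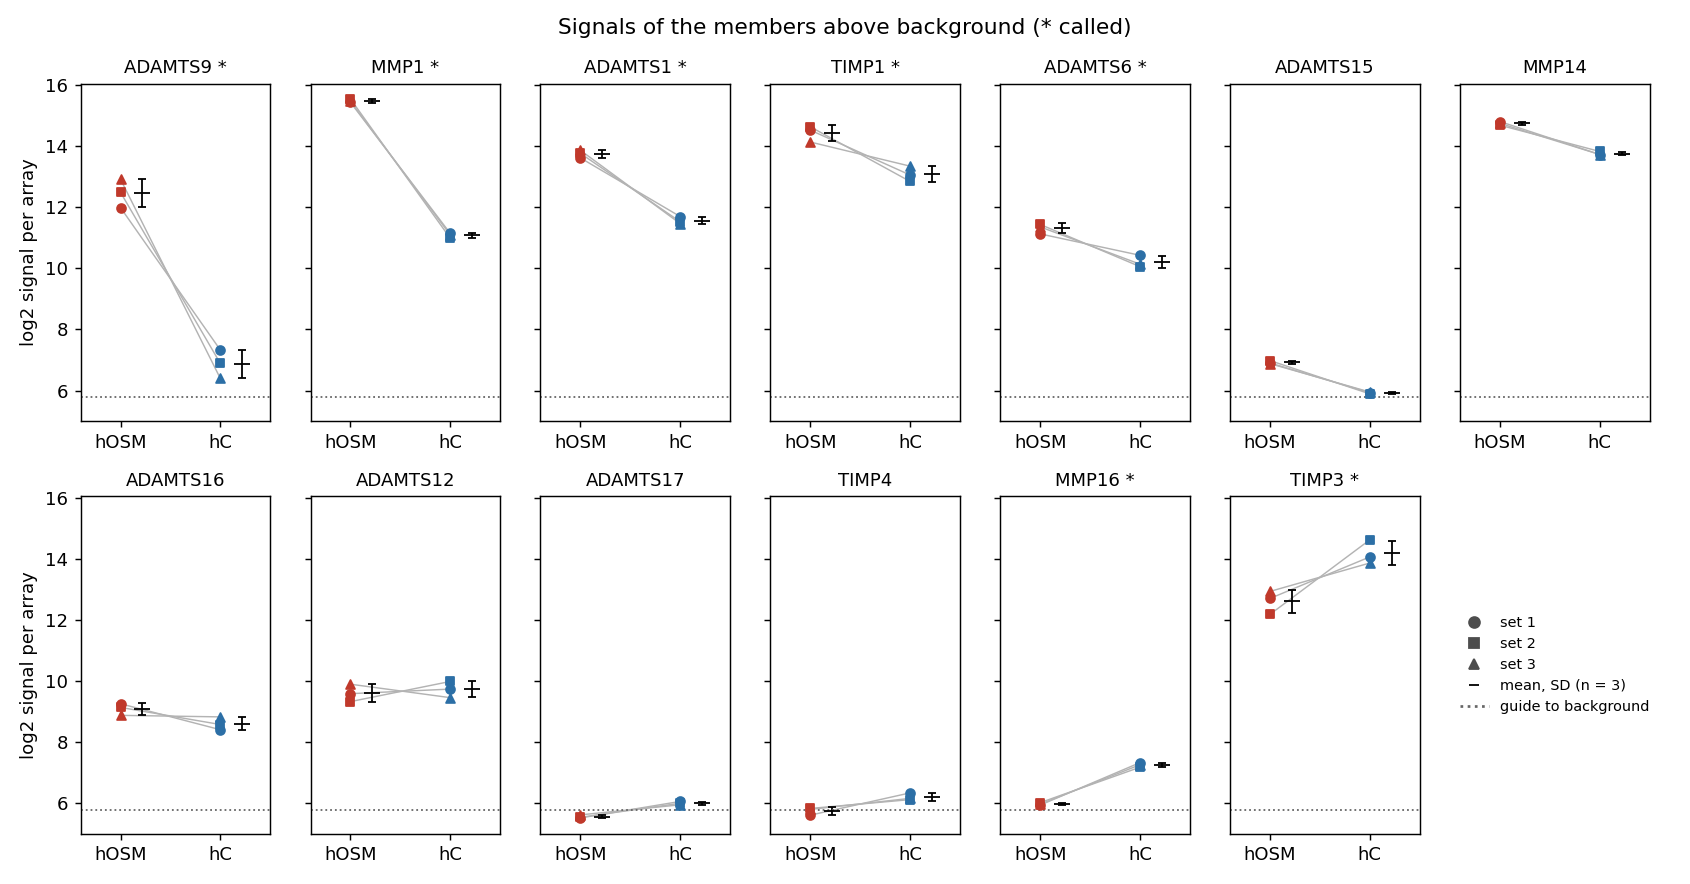
Log2 signal per array (vertical axis) of the 13 members above the guide to background in at least 1 line, in MDA-MB-231-hOSM (left) and MDA-MB-231-hC (right). Symbol shapes are sets 1, 2 and 3, grey lines join the arrays of a set, black bars give the mean and SD (n = 3), the dotted line is the guide at 5.78 and asterisks mark called genes; ADAMTS9 and MMP1 show the widest gaps, and TIMP1 and TIMP3 moved in opposite directions.

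Among the collagenases, the enzymes able to make the first cut in fibrillar collagen, MMP1 rose 21.2-fold in MDA-MB-231-hOSM and the other two were at background. MMP1, the interstitial collagenase, had log2 signals of 15.44, 15.55 and 15.47 in MDA-MB-231-hOSM (sets 1, 2 and 3), against 11.15, 10.99 and 11.10 in MDA-MB-231-hC. The gap between the lines was many times the spread within either, and MMP1 lay well above background in MDA-MB-231-hC as well. Its log2 fold change was 4.41 (SE 0.13, limma adjusted p = 5.6e-05), with differences of 4.29, 4.56 and 4.37 in the 3 sets. MMP8, the collagenase best known from neutrophils, averaged 3.82 ± 0.11 in MDA-MB-231-hOSM and 3.84 ± 0.11 in MDA-MB-231-hC (SD, n = 3 each). MMP13, the collagenase best known from cartilage, averaged 3.85 ± 0.13 in MDA-MB-231-hOSM and 4.08 ± 0.15 in MDA-MB-231-hC (SD, n = 3 each; limma adjusted p = 0.356).

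The gelatinases, which digest denatured collagen and the collagen of basement membranes, lay below the guide to background in both lines. MMP2 averaged 4.31 in MDA-MB-231-hOSM and 4.16 in MDA-MB-231-hC, a log2 difference of 0.16 with a 95% interval from −0.16 to 0.47. MMP9 averaged 5.68 in MDA-MB-231-hOSM and 5.55 in MDA-MB-231-hC, a log2 difference of 0.14 with an interval from −0.18 to 0.46. At this signal a transcript cannot be told from background, so these values do not show that the genes were silent. The stromelysins (0 of 3 called) and matrilysins (0 of 2), enzymes with a broad range of matrix substrates, were at background too. MMP3, stromelysin-1, which can also activate other proenzymes, came nearest to the guide. It had 5.45, 5.91 and 5.87 in MDA-MB-231-hOSM (sets 1, 2 and 3), against 5.46, 4.99 and 5.08 in MDA-MB-231-hC. Set 1 showed no difference and sets 2 and 3 did, so that the arrays of the lines overlapped (log2 fold change 0.57, limma adjusted p = 0.123).

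The membrane-type MMPs, which cut matrix and proenzymes at the cell surface, held 1 called gene and 1 just short of the fold limit, in opposite directions. MMP16, a transmembrane enzyme also called MT3-MMP, had 5.94, 6.02 and 5.97 in MDA-MB-231-hOSM (sets 1, 2 and 3), against 7.33, 7.18 and 7.26 in MDA-MB-231-hC. The arrays did not overlap, and in MDA-MB-231-hOSM the signal lay only slightly above the guide to background. MMP16 had a log2 fold change of −1.28 (SE 0.12, limma adjusted p = 0.00231), a level 2.43-fold higher in MDA-MB-231-hC. MMP14 (MT1-MMP), a collagenase of the cell surface and the known activator of proMMP2, had 14.81, 14.69 and 14.75 in MDA-MB-231-hOSM, against 13.73, 13.83 and 13.73 in MDA-MB-231-hC. The lines lay clearly apart at 1.98-fold (log2 fold change 0.99, 95% interval 0.69 to 1.28, adjusted p = 0.00558), which passed the adjusted p and missed the limit of 2-fold. The other 4 membrane-type MMPs were at background. In all, 19 of the 22 MMPs lay below the guide in both lines, with mean log2 signals from 3.46 to 5.74 in MDA-MB-231-hOSM and from 3.24 to 5.55 in MDA-MB-231-hC. Their log2 fold changes ran from −0.35 to 0.57, and 0 of them passed the adjusted p under 0.1. Of all transcript clusters 19.7% passed (4217 of 21448), and of those above background 26.5% (3502 of 13191). The share among transcript clusters below the guide, the like set for these genes, was thus under 19.7%.

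**Figure D2:**
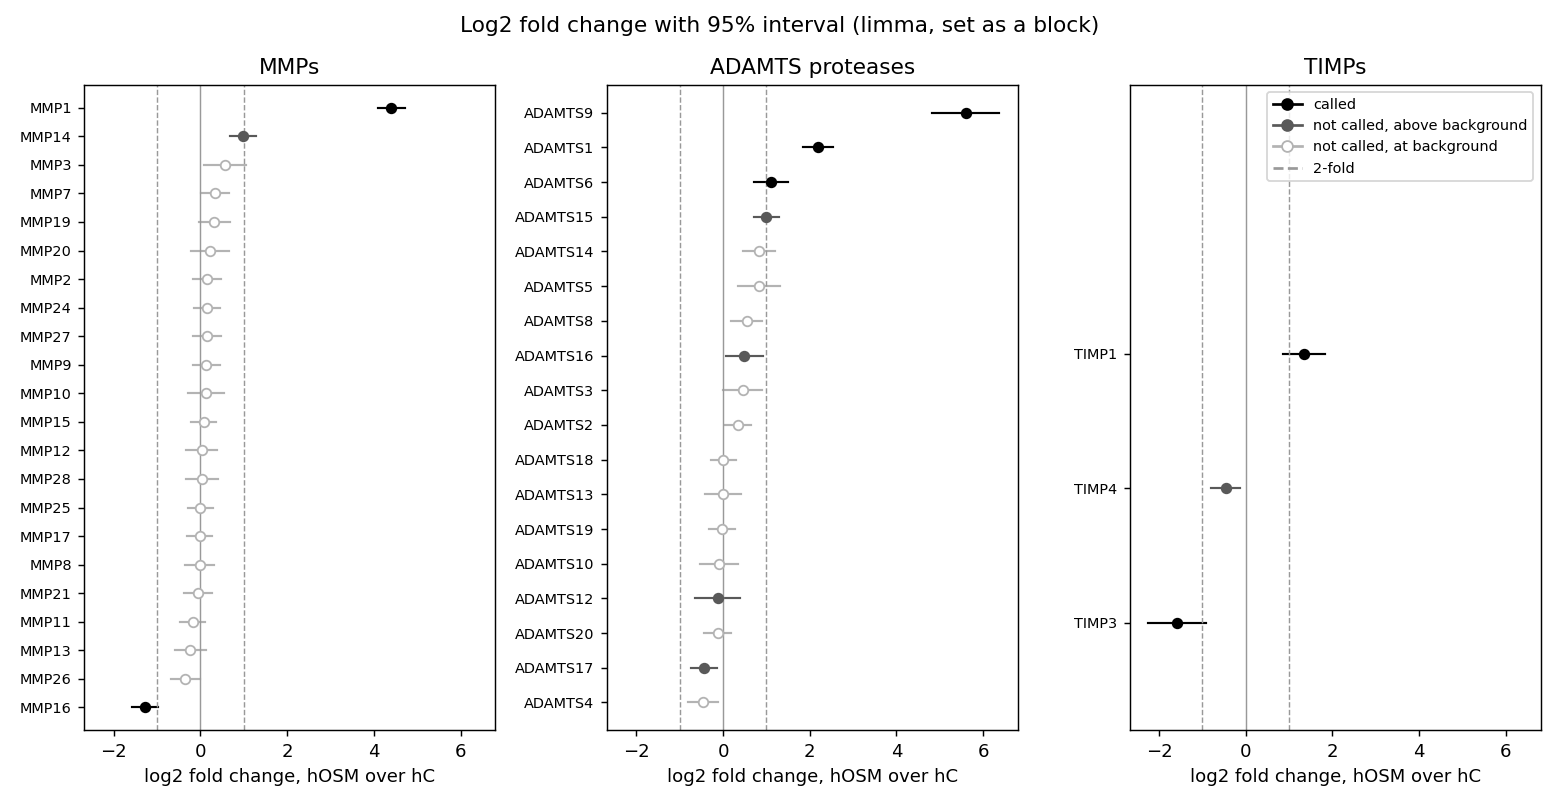
Log2 fold change of MDA-MB-231-hOSM over MDA-MB-231-hC (horizontal axis) with its 95% interval for each of the 43 measured MMPs, ADAMTS proteases and TIMPs. Black points are called, grey points are not called, open points lie at background and dashed lines mark 2-fold; ADAMTS9 reached 5.59, and MMP14 and ADAMTS15 fell just short of 2-fold.

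MMP1 belongs to a run of 9 MMP genes that follow each other on chromosome 11 in the order MMP7, MMP20, MMP27, MMP8, MMP10, MMP1, MMP3, MMP12 and MMP13 (RefSeq, GRCh38.p14). By the means of the lines, only MMP1 of the 9 lay above background, and it alone was called. Its neighbors on either side were MMP10, stromelysin-2, with 4.98, 5.09 and 5.35 in MDA-MB-231-hOSM (sets 1, 2 and 3), against 5.19, 5.05 and 4.80 in MDA-MB-231-hC, and MMP3, whose values are given above. The arrays of the lines overlapped for both neighbors. MMP7, matrilysin, at one end of the run, had 3.84, 3.64 and 3.83 in MDA-MB-231-hOSM, against 3.38, 3.54 and 3.39 in MDA-MB-231-hC. These arrays did not overlap, but both lines were far below the guide and the log2 fold change of 0.33 missed the threshold (limma adjusted p = 0.162).

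**Figure D3:**
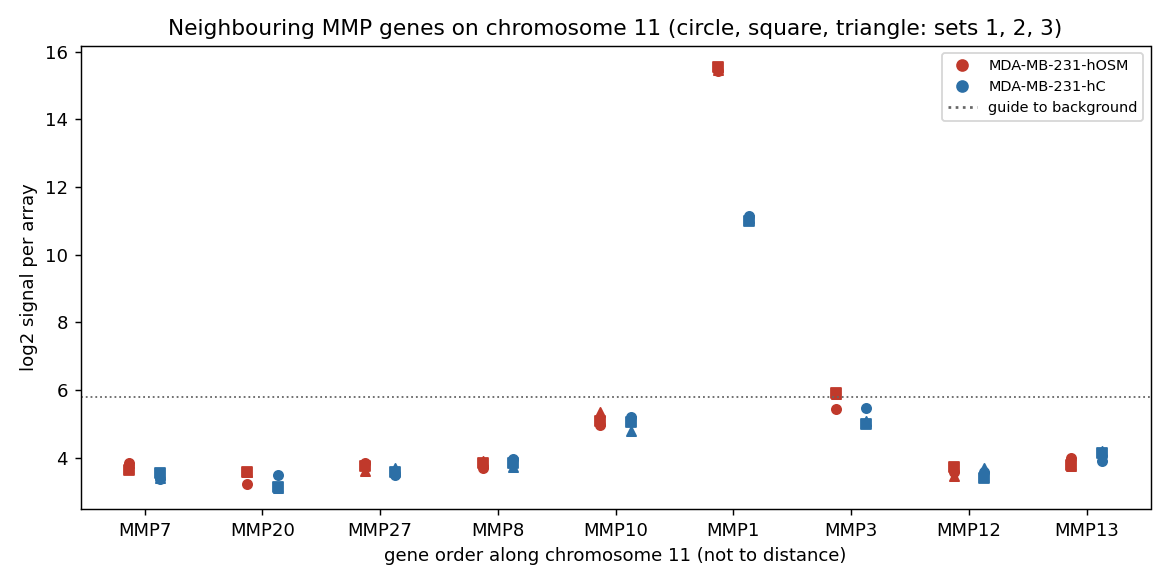
Log2 signal per array (vertical axis) of the 9 neighboring MMP genes in their order along chromosome 11, not drawn to distance, with MDA-MB-231-hOSM left of MDA-MB-231-hC for each gene. Circles, squares and triangles are sets 1, 2 and 3 and the dotted line is the guide to background at 5.78; every array of MMP1 lay above it, as did sets 2 and 3 of MMP3 in MDA-MB-231-hOSM, with all 3 MMP1 arrays of MDA-MB-231-hOSM above 15 and those of MDA-MB-231-hC near 11.

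Promoter windows of RefSeq (GRCh38.p14, from 250 bases before to 50 after a start) were at hand for 25 of the 43 measured members, of which TIMP1, TIMP3 and ADAMTS6 were called. The element bound by AP-1 factors, which many inducible MMP promoters carry, is TGAGTCA or TGACTCA. The looser pattern TGANTCA was searched on both strands. It was found in 4 of the 25 genes (MMP7, MMP10, MMP20 and ADAMTS12) and in 7.71% of all 35116 windows. The match was TGAGTCA in MMP7 alone, and TGAATCA, which is not that element, in MMP10, MMP20 and ADAMTS12. TATAAA was searched on the strand of the gene and was found in 6 members (MMP7, MMP8, MMP10, MMP20, MMP21 and MMP26) and in 7.33% of all windows. TTCNNNGAA, the element bound by STAT factors, which act downstream of OSM receptors, was found on either strand in 0 of the 25 members and in 7.66% of all windows. A match describes letters in a window and not an occupied site. The genes with either of the first pair of motifs were uncalled, and each except ADAMTS12 lay at background. MMP1, ADAMTS1 and ADAMTS9 had no window and could not be searched. These counts thus leave out the largest rises among the members. The bases before the starts of MMP7 and MMP10, both in the chromosome 11 run, show the pair of motifs in one arrangement, with the matches in capitals (each 5′ to 3′ on the minus strand, chr11:102530748-102530867 for MMP7 and chr11:102780629-102780748 for MMP10).
MMP7: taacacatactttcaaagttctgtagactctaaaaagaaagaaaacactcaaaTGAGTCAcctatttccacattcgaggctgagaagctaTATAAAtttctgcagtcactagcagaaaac
MMP10: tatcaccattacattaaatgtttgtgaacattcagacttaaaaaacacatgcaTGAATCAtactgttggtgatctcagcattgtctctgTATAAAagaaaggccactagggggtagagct
Counted from the start, the first match ran from −67 to −61 in both genes, as TGAGTCA in MMP7 and TGAATCA in MMP10, and TATAAA began at −30 in MMP7 and at −31 in MMP10. MMP20, also in the run, held both motifs at other places, TGAATCA from −112 to −106 and TATAAA from −72 to −67.

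The ADAMTS proteases that cut proteoglycans held the largest change among the members. Of the 7, ADAMTS9 and ADAMTS1 rose and 5 were not called. The arrays of the lines did not overlap for any of the 7, 5 of them higher and ADAMTS4 and ADAMTS20 lower in MDA-MB-231-hOSM, where 50.0% of all transcript clusters did not overlap and 4 of the 7 lay at background. ADAMTS9, a versican- and aggrecan-cleaving protease, had log2 signals of 11.99, 12.49 and 12.92 in MDA-MB-231-hOSM (sets 1, 2 and 3), against 7.33, 6.89 and 6.40 in MDA-MB-231-hC. Each array of MDA-MB-231-hOSM lay over 4 log2 units above each of MDA-MB-231-hC, and the difference varied between sets (4.66, 5.60 and 6.52). ADAMTS9 rose 48.3-fold (log2 fold change 5.59, SE 0.32, limma adjusted p = 0.000414). ADAMTS1, which cuts versican and is known from ovulation and vessel growth, had 13.62, 13.77 and 13.87 in MDA-MB-231-hOSM, against 11.70, 11.53 and 11.47 in MDA-MB-231-hC. It rose 4.55-fold, with every set in the same direction and a narrow spread (log2 fold change 2.19, SE 0.14, adjusted p = 0.000585). ADAMTS15, a further versican-cleaving member, had 6.90, 6.98 and 6.88 in MDA-MB-231-hOSM, against 5.93, 5.89 and 5.95 in MDA-MB-231-hC. Its lines lay apart in every set and it passed the adjusted p, but it stayed just inside the fold limit (log2 fold change 0.997, 95% interval 0.71 to 1.29, adjusted p = 0.00506).

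The other 4 proteoglycan-cleaving members were at background. ADAMTS5, an aggrecanase of cartilage, had 5.29, 4.93 and 4.82 in MDA-MB-231-hOSM (sets 1, 2 and 3), against 3.89, 4.26 and 4.39 in MDA-MB-231-hC, a log2 fold change of 0.83 (limma adjusted p = 0.0464). ADAMTS4, the other main aggrecanase of cartilage, went the opposite way, with 3.79, 4.04 and 3.91 in MDA-MB-231-hOSM and 4.49, 4.24 and 4.38 in MDA-MB-231-hC (log2 fold change −0.46, adjusted p = 0.0912). These genes passed the adjusted p with arrays apart, yet all their signals lay in the range of the olfactory receptor genes, and neither reached 2-fold. The neighbors ADAMTS1 and ADAMTS5 on chromosome 21, and ADAMTS8 and ADAMTS15 on chromosome 11, each pair a gene above background with one below it. ADAMTS8 averaged 4.39 in MDA-MB-231-hOSM and 3.85 in MDA-MB-231-hC (log2 fold change 0.54, adjusted p = 0.0631).

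The procollagen N-proteinases, which remove the amino-terminal propeptide of fibrillar procollagens, were at background and uncalled (0 of 3). ADAMTS14 had 4.77, 5.10 and 4.93 in MDA-MB-231-hOSM (sets 1, 2 and 3), against 4.24, 3.96 and 4.08 in MDA-MB-231-hC (log2 fold change 0.84, limma adjusted p = 0.0208). ADAMTS2 (log2 fold change 0.34, adjusted p = 0.13) and ADAMTS3 (0.45, adjusted p = 0.17) did not pass the adjusted p, and the arrays of the lines overlapped for ADAMTS3.

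Of the 8 remaining ADAMTS proteases, ADAMTS6 was called. ADAMTS6, a relative of ADAMTS10 that acts on microfibril proteins, had 11.13, 11.44 and 11.36 in MDA-MB-231-hOSM (sets 1, 2 and 3), against 10.43, 10.06 and 10.14 in MDA-MB-231-hC. The arrays did not overlap, and the difference was smallest in set 1 (0.70, against 1.38 in set 2 and 1.22 in set 3). Its log2 fold change was 1.10 (SE 0.16, limma adjusted p = 0.011), and the call was lost when set 2 (adjusted p = 0.115) or set 3 (adjusted p = 0.141) was left out. ADAMTS12, which can cut cartilage oligomeric matrix protein, had 9.59, 9.33 and 9.90 in MDA-MB-231-hOSM, against 9.74, 9.99 and 9.46 in MDA-MB-231-hC. Its lines overlapped, and the log2 difference of −0.12 had a 95% interval from −0.64 to 0.39. ADAMTS16, which is known to cut fibronectin, had 9.26, 9.14 and 8.88 in MDA-MB-231-hOSM and 8.41, 8.58 and 8.83 in MDA-MB-231-hC (log2 fold change 0.49, adjusted p = 0.128). Every array of MDA-MB-231-hOSM was higher, by little in set 3, and the change did not pass the test. ADAMTS17, the fourth of this group above background in at least 1 line, had 5.52, 5.54 and 5.62 in MDA-MB-231-hOSM and 6.06, 6.00 and 5.95 in MDA-MB-231-hC. It crossed the guide to background between the lines, with a log2 fold change of −0.44 (adjusted p = 0.0666) that stayed inside the fold limit. Over the family, 11 of the 18 ADAMTS proteases lay below the guide in both lines, with log2 fold changes from −0.46 to 0.84. Of these 11, 4 passed the adjusted p, against 19.7% of all transcript clusters and 26.5% of those above background. The share among transcript clusters below the guide, the like set for these genes, was thus under 19.7%.

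The 3 measured TIMPs moved apart, with TIMP1 higher, TIMP3 lower and TIMP4 uncalled. TIMP1, a soluble inhibitor that binds proMMP9 and most secreted MMPs, had log2 signals of 14.53, 14.64 and 14.14 in MDA-MB-231-hOSM (sets 1, 2 and 3), against 13.06, 12.85 and 13.35 in MDA-MB-231-hC. The arrays did not overlap, and set 3 had the smallest difference (0.79, against 1.47 in set 1 and 1.79 in set 2). TIMP1 rose 2.55-fold (log2 fold change 1.35, SE 0.20, limma adjusted p = 0.0112). TIMP3, which is bound to the matrix and also inhibits ADAM and ADAMTS proteases, had 12.71, 12.19 and 12.94 in MDA-MB-231-hOSM, against 14.07, 14.63 and 13.87 in MDA-MB-231-hC. Again the lines did not overlap and set 3 had the smallest difference (−0.93, against −1.36 in set 1 and −2.44 in set 2). TIMP3 had a log2 fold change of −1.58 (SE 0.28, adjusted p = 0.0188), a level 2.98-fold higher in MDA-MB-231-hC. Both calls were lost in some fits with a set left out, which rest on fewer arrays. In these fits the change stayed over 2-fold in the same direction, and the adjusted p rose above the limit of 0.1. TIMP1 lost its call without set 1 (log2 fold change 1.29, adjusted p = 0.112) or set 2 (1.13, adjusted p = 0.113), and TIMP3 without set 1 (−1.69, adjusted p = 0.124) or set 3 (−1.90, adjusted p = 0.103). TIMP4, the inhibitor best known from heart muscle, had 5.61, 5.83 and 5.80 in MDA-MB-231-hOSM and 6.34, 6.12 and 6.16 in MDA-MB-231-hC. Its arrays did not overlap, its mean lay above the guide in MDA-MB-231-hC alone, and its log2 fold change of −0.46 passed the adjusted p (0.0859) and not the fold limit.

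The 250 bases before the starts of TIMP1 and TIMP3 are shown because these inhibitors changed in opposite directions, with GC boxes (GGGCGG or CCGCCC, a motif added after the windows had been read) in capitals (each 5′ to 3′ on the plus strand, chrX:47582186-47582435 for TIMP1 and chr22:32801455-32801704 for TIMP3).
TIMP1: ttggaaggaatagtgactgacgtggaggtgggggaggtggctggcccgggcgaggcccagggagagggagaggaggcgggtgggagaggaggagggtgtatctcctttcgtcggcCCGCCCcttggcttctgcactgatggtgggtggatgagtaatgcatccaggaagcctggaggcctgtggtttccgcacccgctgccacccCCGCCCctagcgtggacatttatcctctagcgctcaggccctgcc
TIMP3: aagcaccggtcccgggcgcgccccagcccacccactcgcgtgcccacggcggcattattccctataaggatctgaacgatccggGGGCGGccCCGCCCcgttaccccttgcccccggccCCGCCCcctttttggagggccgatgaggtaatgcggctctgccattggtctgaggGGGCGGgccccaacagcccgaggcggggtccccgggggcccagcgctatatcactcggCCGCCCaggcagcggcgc
The TIMP1 stretch held 2 GC boxes, 12 CpG dinucleotides and 64.8% G and C, and the TIMP3 stretch held 5 GC boxes, 26 CpG dinucleotides and 72.4% G and C. Over all windows, the medians for these 250 bases were 11 CpG dinucleotides and 58% G and C. None of the other motifs searched was found in either. GC boxes were present in the windows of 17 of the 25 members and in 45.0% of all windows. All of these 17 except TIMP1 and TIMP3 were uncalled, and a link between these letters and the direction of change was not tested.

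Of the ADAMs, the membrane-anchored relatives that shed cell surface proteins and that TIMP3 also inhibits, 3 of 19 measured rose, 0 fell and 16 were not called. ADAM12 averaged 6.21 ± 0.17 in MDA-MB-231-hOSM and 3.98 ± 0.16 in MDA-MB-231-hC (SD, n = 3 each, limma adjusted p = 0.000786). ADAM19 averaged 9.20 ± 0.26 in MDA-MB-231-hOSM and 7.32 ± 0.26 in MDA-MB-231-hC (3.68-fold, adjusted p = 0.00344). ADAM28 averaged 6.03 ± 0.20 in MDA-MB-231-hOSM and 4.70 ± 0.19 in MDA-MB-231-hC (adjusted p = 0.00653). ADAM12 and ADAM28 were below the guide on every array of MDA-MB-231-hC, so their signals in MDA-MB-231-hOSM were at least 1.35-fold (ADAM12) and 1.19-fold (ADAM28) higher when each MDA-MB-231-hC array is set at the guide or, where higher, at its own signal. ADAM17, the sheddase of TNF and of EGFR ligands, passed the adjusted p with a smaller difference (12.13 in MDA-MB-231-hOSM and 11.45 in MDA-MB-231-hC, log2 fold change 0.68). ADAM10, the other main sheddase, differed by 0.19 and was not called. The median log2 fold change of the ADAMs was 0.16, and 15.8% of them were called, against 4.16% of all transcript clusters.

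The ADAMTS-like proteins share the thrombospondin repeats and lack the protease domain. Of the 7, 3 rose (THSD4, ADAMTSL4 and ADAMTSL1; 42.9%, against 4.16% of all transcript clusters called) and 4 were not called, with a median log2 fold change of 0.37. THSD4, which promotes the assembly of fibrillin microfibrils, averaged 8.76 ± 0.28 in MDA-MB-231-hOSM and 5.55 ± 0.29 in MDA-MB-231-hC (SD, n = 3 each, limma adjusted p = 0.000641). ADAMTSL4, which binds fibrillin-1, averaged 8.11 ± 0.19 in MDA-MB-231-hOSM and 5.75 ± 0.15 in MDA-MB-231-hC (adjusted p = 0.000674). Both genes had a mean at background in MDA-MB-231-hC, with 1 of 3 arrays above the guide, and were at least 7.79-fold (THSD4) and 4.86-fold (ADAMTSL4) higher in MDA-MB-231-hOSM. ADAMTSL1 averaged 10.68 in MDA-MB-231-hOSM and 9.68 in MDA-MB-231-hC, which at a log2 fold change of 1.003 lay just outside the fold limit and lost its call on median centring of the arrays (1.00) and without set 1 (0.90) or set 3 (adjusted p = 0.107). ADAMTSL3 pointed the other way, with 5.41 in MDA-MB-231-hOSM and 6.23 in MDA-MB-231-hC (log2 fold change −0.82, adjusted p = 0.0197), and was not called.

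Among 21 measured inhibitors, activators and clearance receptors of metalloproteinases, 4 rose, 1 fell and 16 were not called, with a median log2 fold change of 0.09. Called were thus 23.8%, against 4.16% of all transcript clusters. Both plasminogen activators, which make the plasmin that can start the activation of proMMPs, were called, in opposite directions. PLAT, the tissue-type activator, had 15.34, 15.38 and 15.92 in MDA-MB-231-hOSM (sets 1, 2 and 3), against 12.82, 12.90 and 12.34 in MDA-MB-231-hC (7.26-fold, limma adjusted p = 0.00125). PLAU, the urokinase, had 11.28, 11.39 and 11.42 in MDA-MB-231-hOSM, against 12.66, 12.57 and 12.49 in MDA-MB-231-hC, a level 2.31-fold higher in MDA-MB-231-hC (adjusted p = 0.00325). The lines did not overlap for either gene. TFPI2, a matrix-bound inhibitor of plasmin and other serine proteases, averaged 15.83 ± 0.31 in MDA-MB-231-hOSM and 13.48 ± 0.31 in MDA-MB-231-hC (5.09-fold, SD, n = 3 each, adjusted p = 0.00255). LRP1, the endocytic receptor that clears MMPs, ADAMTS proteases and TIMPs, averaged 10.55 ± 0.12 in MDA-MB-231-hOSM and 8.69 ± 0.13 in MDA-MB-231-hC (3.63-fold, adjusted p = 0.000997). BMP1, a procollagen C-proteinase, rose 2.11-fold (8.30 in MDA-MB-231-hOSM and 7.22 in MDA-MB-231-hC) and lost its call without set 2 (log2 fold change 0.98). FURIN, the convertase that activates membrane-type MMPs and ADAMTS proteases, lay just inside the fold limit (8.42 in MDA-MB-231-hOSM and 7.46 in MDA-MB-231-hC, log2 fold change 0.95, adjusted p = 0.00615). RECK, a membrane-anchored inhibitor, was not called (log2 fold change −0.20, adjusted p = 0.386).

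Of 9 measured substrates of these enzymes, COL5A1, the chain of a regulatory fibrillar collagen, rose and 8 were not called, with a median log2 fold change of −0.06. This single call was 11.1% of the list, against 4.16% of all transcript clusters called. COL5A1 had 10.46, 10.69 and 10.17 in MDA-MB-231-hOSM (sets 1, 2 and 3), against 8.25, 7.97 and 8.40 in MDA-MB-231-hC (4.70-fold, limma adjusted p = 0.0016). The lines lay apart in every set. VCAN and ACAN, the versican and aggrecan core proteins, were at background in both lines, with mean signals of 4.08 for VCAN and 3.17 for ACAN in MDA-MB-231-hOSM, and of 4.40 for VCAN and 3.01 for ACAN in MDA-MB-231-hC. The lists hold genes of different roles, and none was tested as a set.

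**Figure D4:**
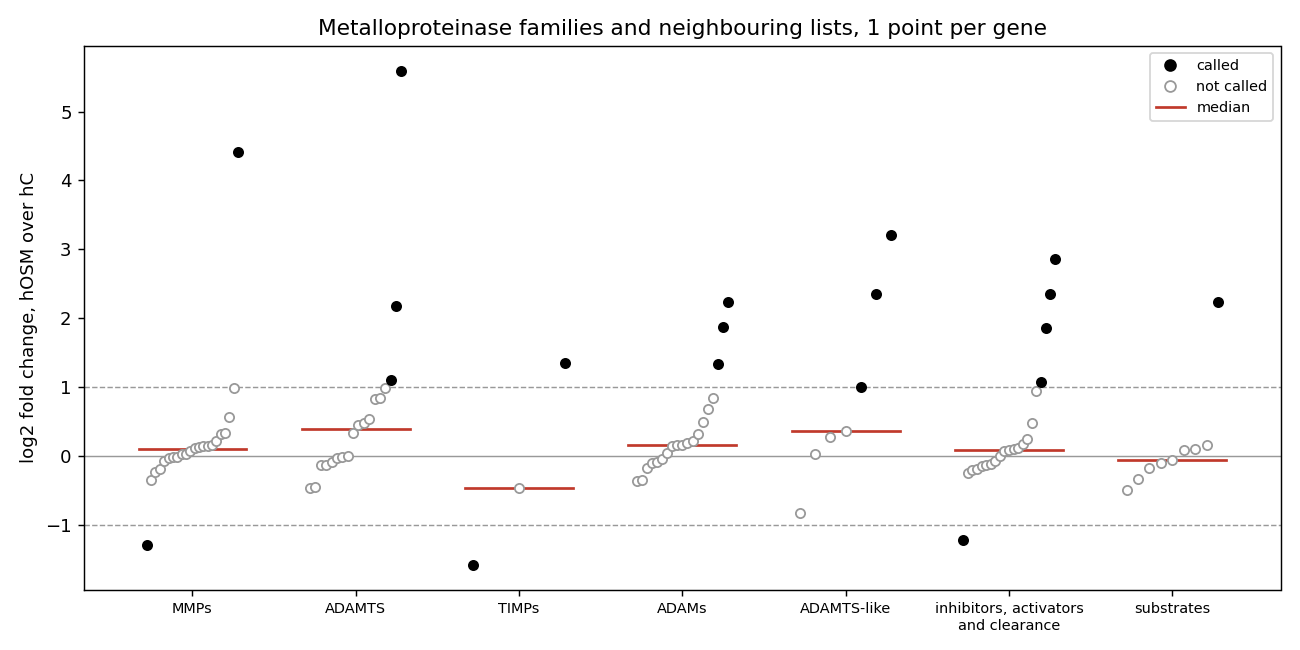
Log2 fold change of MDA-MB-231-hOSM over MDA-MB-231-hC (vertical axis), 1 point per gene, for the MMPs, ADAMTS proteases, TIMPs and the 4 further lists. Filled points are called, open points are not, red lines are medians and dashed lines mark 2-fold; in every list except the TIMPs most genes lie between the dashed lines.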

How the data were processed

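RNA of 6 cultures was hybridized to Human Clariom S arrays, 3 per line. The deposited log2 signals had been made by the authors with Transcriptome Analysis Console 4.0 and robust multi-array averaging (RMA), and for the library version and genome build the sources used here give nothing. The methods and the labels name different RNA extraction reagents. Of 21448 transcript clusters, 17709 carried 1 gene symbol, 0 several and 3739 none in the annotation used here. The 45 members and 4 gene lists were chosen with earlier results of these data known. All transcript clusters were fitted with limma 3.58.1 in R 4.3.3 on the deposited log2 values, with the set as a block because the lines were grown in parallel and the sets share numbers, although the deviations within a set were opposite and not shared (r from −0.995 to −0.992). This left 2 residual degrees of freedom. The limits of 2-fold and an adjusted p under 0.1 follow the methods. Arrays have no read depth, so their number and the background limit the precision. Named were every called member, members above background, TIMPs and called genes of each list, and further genes were named for their class, position or role after their values were seen. Alternatives were no block, quantile normalization, median centring, leaving out dim transcript clusters or a set, a trended robust prior, other thresholds and another guide to background. The fit was tested on simulated data.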

Additional observations from a re-analysis of the deposited data

How the results depend on the processing

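Without the set as a block (no pairing), the same 7 members were called and 899 transcript clusters in place of 893. The fold changes of this fit are the same by design. As the set averages were nearly alike, it spread nearly the same scatter over 4 residual degrees of freedom in place of 2. Its standard errors were smaller, at 0.065 against 0.125 for MMP1 and 0.06 against 0.123 for MMP16, so this fit is no independent check. In simulated data it called 12 unchanged transcript clusters, against 1 with the block. It recovered 100% of the simulated 2.5-fold changes, against 74.6% with the block, and 100% of the 8-fold changes, against 97%. The 7 calls also held with quantile normalization, median centring, the dimmest 7147 transcript clusters left out, a trended robust prior, an adjusted p under 0.05 and a 90th-percentile guide. That guide lay at 5.08, and MMP3, MMP9 and MMP19, placed at background by the main guide, lay above it in both lines. With no fold limit, 4217 transcript clusters, 15 members (11 of those above background), 5 ADAMs and 2 substrates passed. Leaving out these dim transcript clusters, which removes dim members, gave a median member log2 fold change of 0.53. Leaving out a set gave 663 to 874 transcript clusters, 6 members each time, 6 of those above background, a median from 0.07 to 0.14, 2 to 4 ADAMs, 2 to 3 ADAMTS-like genes, 4 to 6 regulators and 1 substrate. MMP1, MMP16, ADAMTS1 and ADAMTS9 kept their calls throughout. ADAMTS6, TIMP1 and TIMP3 each lost theirs without either of 2 sets, while MMP14 gained one without set 2 (log2 fold change 1.05, limma adjusted p = 0.0663) and ADAMTS15 without set 1 (1.01, adjusted p = 0.0607) or set 3 (1.03, adjusted p = 0.0818). ADAM19 lost its call without set 3 (adjusted p = 0.101) and ADAM28 without set 2 (adjusted p = 0.1), while ADAM8 (1.09) and FURIN (1.01) gained one without set 1. No called member changed direction. ADAMTS12, not called, had a log2 fold change of 0.15 without set 2, against −0.12 with all sets. No signal near background can tell a silent gene from a weakly expressed one.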

Other observations

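Each measured TIMP gene lies within the span of a synapsin gene in RefSeq (GRCh38.p14): TIMP1 within SYN1, TIMP3 within SYN3 and TIMP4 within SYN2. None of the synapsin genes, which encode proteins of neuronal vesicles, was called and each lay at background in both lines. SYN1 averaged 4.36 in MDA-MB-231-hOSM and 4.78 in MDA-MB-231-hC (limma adjusted p = 0.23), SYN3 averaged 3.73 in MDA-MB-231-hOSM and 4.10 in MDA-MB-231-hC (adjusted p = 0.194), and SYN2 averaged 4.08 in MDA-MB-231-hOSM and 3.95 in MDA-MB-231-hC (adjusted p = 0.523).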
